A study of Homo sapiens with 18 samples.

Results

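Small noncoding RNAs were described in A375 cells, a human malignant melanoma line, treated with IMD-0354, a small-molecule inhibitor of the kinase IKKβ. The RNAs are the small nucleolar RNAs (symbols beginning SNORA and SNORD), the small Cajal body RNAs (SCARNA), the spliceosomal and related nuclear RNAs (RNU) and the Y RNAs (RNY). Cells of the 24 h series were left untreated or received 0.32, 0.63 or 1.25 µM of the compound, and cells of the 48 h pair received 0.63 µM or were left untreated. Each of the 6 groups held 3 libraries, and no label says that an untreated well received solvent. The labels number the libraries of a group but do not say that they came from separate cultures, so every p-value below measures only the spread between these libraries, which may be technical.

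A gene was a member when its symbol began with one of these prefixes and its level was at least 1 TPM, an abundance scaled for transcript length and library total, in at least 3 of the 18 libraries. Of 2410 identifiers with such a symbol, 111 met the rule, out of 60504 identifiers in the table and 14936 genes that met the same level filter. They were 35 SNORA, 15 SNORD, 7 SCARNA, 14 RNU and 3 RNY genes, with 34 RNU and 3 RNY pseudogenes. The members were thus chosen by their measured TPM, and their presence is a description. At the edge of the rule, 21 members reached 1 TPM in exactly 3 libraries, with means over all libraries of 0.474 to 7.03 TPM, and 46 genes just outside reached it in exactly 2, with means of 0.300 to 9.24 TPM. Every member reached 1 TPM in at least 2 of the 6 groups.

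As background, SNORD RNAs carry the C and D boxes and guide ribose methylation, mostly of ribosomal RNA, while SNORA RNAs carry the H and ACA boxes and guide conversion of uridine to pseudouridine. SCARNA RNAs do the same work on spliceosomal RNAs in Cajal bodies. Most of these guides are cut from introns of host genes. The U1, U2, U4, U5 and U6 RNAs form the major spliceosome and U4atac and U6atac belong to the minor one, which removes a rare class of introns. Y RNAs are RNA polymerase III transcripts bound by the Ro60 and La proteins and are known for roles in RNA quality control and DNA replication. In their mature form these RNAs are not known as polyadenylated transcripts.

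The libraries were made with a kit that sequences from 3′ ends of RNA primed with oligo(dT), and the longest run of A in any member's annotated sequence was 6 bases. How these RNAs entered the libraries was not tested. None of 304 genes of these families shorter than 78 nt had a value above 0 in any library. Of 99 genes of 78 to 85 nt, 5 had a value above 0 and 0 met the rule. The share that met it was 3.98% of 226 genes at 86 to 100 nt, 2.95% of 1222 at 101 to 120 nt, 11.8% of 347 at 121 to 150 nt and 11.8% of 212 above 150 nt. SNORD genes had a median annotated length of 81 nt and 15 of 312 met the rule, while SNORA genes had a median of 133 nt and 35 of 213 met it. Values of 0 were common, with 36 to 77 of the 111 members above 0 in a library. Of 33 RNAs listed as landmarks, 12 stayed below the filter, among them RNU11, RNU12, RNU7-1, RNU4-2 and RNU5A-1, each listed at 0 in every library. A further 1, RNY5, matched no symbol, so the RNY class lacks it.

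**Figure D1:**
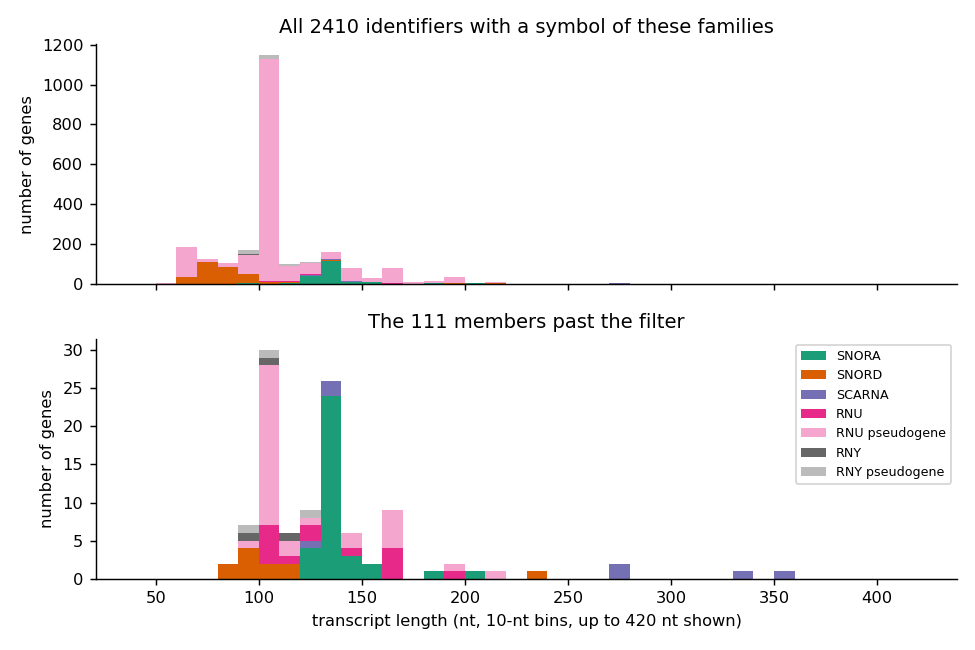
Number of genes (y axis) by annotated transcript length in 10-nt bins (x axis, up to 420 nt, longer genes not drawn), stacked by class. The upper panel holds all 2410 identifiers of these families and the lower one the 111 members, of which the shortest was 86 nt.

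Sequences of the RNAs that the results turn on are shown from the GENCODE 29 transcripts (GRCh38), 5′ to 3′, as DNA letters. The H/ACA RNAs that passed a test follow first. Capitals mark the 6 bases matching ANANNA, the form of an H box, that lie nearest the middle, and an ACA placed 3 bases from the 3′ end. Of all 213 SNORA genes, 66.7% held ACA at that place and 98.1% held ANANNA somewhere on the given strand, against 1.60% and 84.0% of 312 SNORD genes.
SCARNA22: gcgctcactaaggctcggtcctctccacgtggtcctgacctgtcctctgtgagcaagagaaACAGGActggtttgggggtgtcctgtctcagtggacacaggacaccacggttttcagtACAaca
SNORA61: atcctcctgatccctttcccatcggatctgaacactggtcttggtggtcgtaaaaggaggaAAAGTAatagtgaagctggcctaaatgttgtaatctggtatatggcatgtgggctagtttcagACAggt
SNORA12: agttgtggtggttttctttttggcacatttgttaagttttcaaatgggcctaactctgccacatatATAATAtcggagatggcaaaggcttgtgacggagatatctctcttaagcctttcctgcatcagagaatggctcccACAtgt
SNORA67: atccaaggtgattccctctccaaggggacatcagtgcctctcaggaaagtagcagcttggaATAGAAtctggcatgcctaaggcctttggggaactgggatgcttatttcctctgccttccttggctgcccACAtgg
SNORA62: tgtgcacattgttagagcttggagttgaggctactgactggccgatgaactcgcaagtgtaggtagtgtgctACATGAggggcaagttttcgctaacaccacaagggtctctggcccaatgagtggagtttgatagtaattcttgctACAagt

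The minor spliceosome RNA U4atac is shown next, with capitals on AATTTTTGG, the form of the site that the Sm protein ring binds. It was found on the given strand in 0.721% of 1804 RNU genes and pseudogenes.
RNU4ATAC: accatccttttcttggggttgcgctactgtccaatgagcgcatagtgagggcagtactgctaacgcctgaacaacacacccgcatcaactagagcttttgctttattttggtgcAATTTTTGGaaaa

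RNY4 and RNY1 are shown for the Y RNAs. Capitals mark the 11 bases that both share at the 5′ end and the run of T at the 3′ end, the mark of an RNA polymerase III transcript.
RNY4: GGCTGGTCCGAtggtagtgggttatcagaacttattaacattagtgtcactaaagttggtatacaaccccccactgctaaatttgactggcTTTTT
RNY1: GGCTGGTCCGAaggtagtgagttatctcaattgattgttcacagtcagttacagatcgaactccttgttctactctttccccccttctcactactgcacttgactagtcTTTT

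RNU6-1016P is shown because it passed at both higher doses at 24 h while having a sequence of its own among U6 pseudogenes, and no base of it is in capitals.
RNU6-1016P: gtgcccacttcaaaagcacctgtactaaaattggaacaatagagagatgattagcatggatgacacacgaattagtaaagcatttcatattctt

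Facts of the series that touch these values were few. Between 14647 and 17029 genes were above 0 in a library, and the sum of TPM was the same in each. TPM holds no read counts, so the depth behind each value is unknown. It also divides by transcript length, while the kit sequences from 3′ ends. Ranks, class sums, shares of TPM and levels of member against host therefore do not compare numbers of molecules. The untreated 24 h libraries 2 and 3 correlated least with the others of their group (mean r of 0.907 and 0.920 on log2 values, against 0.929 to 0.953 elsewhere). Of 11 markers listed for a melanoma line and the melanocyte lineage, only 4 averaged at least 1 TPM, namely SOX10, MITF, PRAME and CSPG4. MLANA, S100B, S100A1, DCT and PMEL averaged 0.613, 0.434, 0.252, 0.103 and 0.085 TPM, and TYR and TYRP1 were at 0. Markers of fibroblasts, leukocytes and endothelium stayed under 1 TPM when summed within a list. The 4 keratinocyte markers summed to 72.7 to 103 TPM at 1.25 µM and 39.2 to 45.1 TPM in untreated cells at 24 h, and nearly all of it was KRT10 while KRT1 was at 0. The 11 melanoma and melanocyte-lineage markers summed to 39.4 to 47.6 TPM at 0.63 µM for 48 h and 76.3 to 78.3 TPM in untreated cells at 48 h. The part of these shifts in the results below was not tested. In bulk RNA, fewer cells of a kind and less RNA per cell cannot be told apart.

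The summed TPM of these RNAs was lower in treated than in untreated libraries of the same time. How much of these RNAs the cells held was not measured. Summed over the 111 members, untreated cells at 24 h held 2821, 3508 and 2725 TPM, cells at 0.32 µM held 2554, 1958 and 1872 TPM, cells at 0.63 µM held 1408, 1352 and 1047 TPM, and cells at 1.25 µM held 1140, 839 and 758 TPM. None of these 4 groups overlapped another except 0.63 with 1.25 µM. At 48 h the sum was 1231, 975 and 1342 TPM at 0.63 µM, against 3052, 2364 and 2276 TPM in untreated cells. As a share of all TPM, this was 0.118% ± 0.0188 at 0.63 µM for 48 h, against 0.256% ± 0.0425 in untreated cells (SD, n = 3 each).

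SCARNA22 and RNU4ATAC made up a large portion of the summed TPM. They held 40.2 to 43.2% of it in untreated cells at 24 h, 27.5 to 34.5% at 0.32 µM, 17.8 to 28.3% at 0.63 µM and 13.9 to 23.9% at 1.25 µM. Without them, the other 109 members averaged 740 ± 118 TPM at 1.25 µM and 1767 ± 292 TPM in untreated cells at 24 h (SD, n = 3 each). At 48 h they averaged 889 ± 135 TPM at 0.63 µM and 1320 ± 189 TPM in untreated cells (SD, n = 3 each). Without the 10 members that passed a test somewhere, the other 101 averaged 653 ± 153 TPM at 1.25 µM and 1378 ± 359 TPM in untreated cells at 24 h, and the libraries of these groups did not overlap. No p-value was computed for a sum over all members, over these subsets or over a class. Only sums of copies of 1 RNA were tested, as given below.

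**Figure D2:**
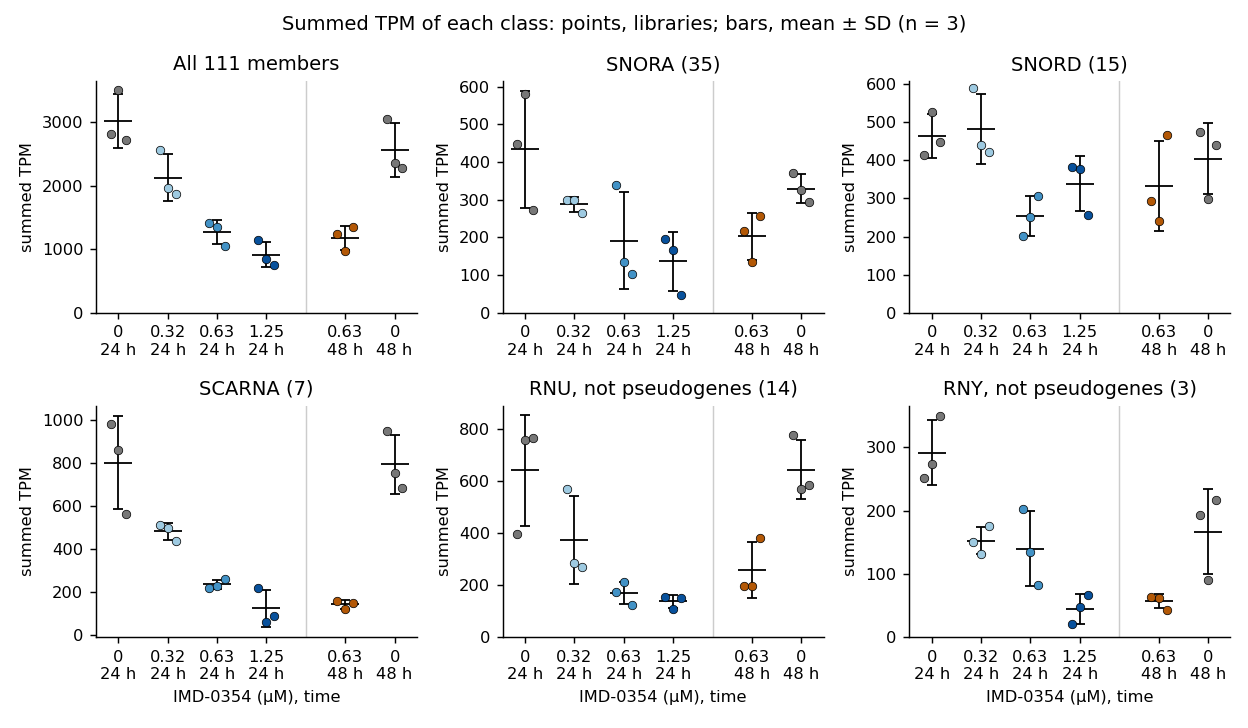
Summed TPM (y axis) of all members and of 5 classes in each library, by dose in µM and time (x axis). Points are libraries and bars the mean ± SD of 3. The sum over all members was 758 to 1140 TPM at 1.25 µM and 2725 to 3508 TPM in untreated cells at 24 h.

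The SCARNA sum averaged 124 ± 85.1 TPM at 1.25 µM and 801 ± 216 TPM in untreated cells at 24 h, and the RNY sum averaged 44.9 ± 23.6 TPM and 291 ± 51.3 TPM in the same groups (SD, n = 3 each). The ratio of the means was 0.155 for SCARNA, 0.154 for RNY, 0.215 for RNU, 0.286 for RNU pseudogenes, 0.315 for SNORA and 0.731 for SNORD genes. For RNY pseudogenes it was 3.66, from means of 20.4 and 5.58 TPM. The RNU and RNU pseudogene sums both hold identical U6 and U1 copies, so they are not separate measurements. The SNORD sum was 383, 378 and 255 TPM at 1.25 µM and 414, 526 and 449 TPM in untreated cells at 24 h, so these libraries did not overlap either. At 48 h the ratio was 0.181 for SCARNA, 0.339 for RNY, 0.402 for RNU, 0.615 for SNORA, 0.800 for RNU pseudogenes, 0.824 for SNORD genes and 1.16 for RNY pseudogenes. There the SNORD, RNU pseudogene and RNY pseudogene sums overlapped between 0.63 µM and untreated cells. The difference in size between classes was not tested.

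Single members were tested on log2(TPM + 1) in 1 limma fit over all 14936 genes and 18 libraries, with Benjamini-Hochberg adjustment over all genes, and passed at an adjusted p under 0.05 in a two-sided test. At 0.63 µM for 24 h, 4 members fell and 0 rose, against a background of 2.18% of all genes called, 0.824% lower and 1.36% higher. At 1.25 µM, 7 members fell and 1 rose. That is 7.21% of members, against 11.3% of all genes called, 6.36% lower and 4.94% higher. At 0.63 µM for 48 h, 4 members fell and 0 rose. That is 3.60% of members, against 7.63% of all genes called, 5.68% lower and 1.95% higher. The members that fell were 3.60% of the 111 at 0.63 µM for 24 h, 6.31% at 1.25 µM and 3.60% at 48 h, so the share that fell was above the background of lower calls at 0.63 µM for 24 h, near it at 1.25 µM and below it at 48 h.

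At 0.32 µM no member passed in limma, against 0.0268% of all genes called, 0.0201% lower and 0.0067% higher, and 8 members had an unadjusted p under 0.05. Between untreated cells at 48 h and at 24 h no member passed in limma, against 0.0134% of all genes called, all of them lower (0% higher), and 13 members had an unadjusted p under 0.05. The effects of 0.63 µM at 48 h and at 24 h differed for no member in limma, against 0.0335% of all genes called, 0.0201% lower and 0.0134% higher, and 7 members had an unadjusted p under 0.05.

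The fitted change was negative for 84 of 111 members at 0.63 µM for 24 h and for 84 at 1.25 µM, against 48.9% and 50.8% of all genes. The median log2 fold change was −0.81 and −1.33 in these comparisons, beside 0.00408 and −0.00999 over all genes. Both share the untreated 24 h libraries. At 48 h, 61 members were negative and the median was −0.35, beside −0.15 over all genes, of which 60.8% were negative. At 1.25 µM, 41 members (36.9%) were listed at 0 in all treated libraries only and 9 (8.11%) in all untreated ones only, against 516 (3.45%) and 313 (2.10%) of all genes tested. The median over the 57 members above 0 in both groups was −1.33. Both medians of −1.33 fall on a value that identical U6 copies share, so the second is no separate check of the first. Members whose treated libraries all lay below the untreated ones numbered 27 at 1.25 µM (24.3%, against a background of 13.7%), 20 at 0.63 µM for 24 h (18.02%, against 9.26%), 6 at 0.32 µM (5.41%, against 4.59%) and 16 at 48 h (14.4%, against 21.3%). Members whose treated libraries all lay above numbered 1, 0, 1 and 0 in these comparisons, against 12.4%, 10%, 4.08% and 9.23% of all genes. Between untreated cells at 48 h and at 24 h, 3 members lay wholly lower and 2 wholly higher, against 7.65% and 4.87% of all genes. Identical copies are counted singly in these numbers, although they carry the same values. Of the 27 members, 10 were RNU genes and 9 RNU pseudogenes, and of the 20 they were 6 and 7. These classes hold 11 U6 and 6 U1 copies. The U6 sum lay wholly lower at both doses and the U1 sum at 1.25 µM. The shares above background are therefore not shares of separate RNAs, and shares with each set of copies counted as 1 were not computed.

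SCARNA22 was the most abundant member by TPM and fell with IMD-0354 at both times. It is an H/ACA scaRNA, chr4:1974636-1974760 on the plus strand, within an intron of NSD2, and is known for high levels in multiple myeloma with a translocation at that gene. Untreated cells at 24 h held 889, 778 and 530.0 TPM, cells at 0.32 µM 434, 459.9 and 386 TPM, cells at 0.63 µM 161, 204 and 229 TPM, and cells at 1.25 µM 164, 34.2 and 49.6 TPM. At 24 h every treated library lay below every untreated one, in each dose group.

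The fall at 1.25 µM had a log2 fold change of −3.43 (SE 0.395, limma adjusted p = 5.1e-05), with a mean of 82.7 ± 71.2 TPM against 732 ± 184 TPM in untreated cells (SD, n = 3 each). That call was lost in a fit of the compared groups alone (limma adjusted p = 0.0674). At 0.63 µM the log2 fold change was −1.86 (SE 0.395, limma adjusted p = 0.0262), and the call was lost when any library of the comparison other than untreated 24 h library 3 was left out (adjusted p of 0.0604 to 0.0865), with no filter on low values (0.0546), and in a fit of the compared groups alone (0.176). At 0.32 µM it was −0.75 (SE 0.395, limma adjusted p = 0.832), which did not pass. At 48 h SCARNA22 stood at 69.1, 72.8 and 112 TPM at 0.63 µM, against 877, 700.4 and 646 TPM in untreated cells. The log2 fold change was −3.14 (SE 0.395, limma adjusted p = 0.00014), and the call was kept with any single library left out.

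The difference between the 2 times at 0.63 µM was −1.28 on the log2 scale (SE 0.559, limma adjusted p = 0.378) and did not pass. Between untreated cells at 48 h and at 24 h the log2 difference was 0.04 (SE 0.395, limma adjusted p = 0.996), which did not pass. The precision of the lowest values is limited. In library 2 at 1.25 µM, SCARNA22 was 4.0 times the lowest value of any other transcript of the same length above 0, while in untreated 24 h library 1 it was 80.0 times that value.

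The host NSD2, a histone methyltransferase gene, did not pass in any comparison. It stood at 33.9, 30.2 and 38.6 TPM at 1.25 µM, against 54.1, 54.6 and 61.1 TPM in untreated cells at 24 h, groups that did not overlap. Its log2 fold change was −0.71 (SE 0.269, limma adjusted p = 0.102). At 48 h it stood at 50.5, 48.2 and 36.9 TPM at 0.63 µM, against 74.6, 65.3 and 54.6 TPM in untreated cells, a log2 fold change of −0.51 (limma adjusted p = 0.298). The difference between host and member was not tested in itself.

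No other scaRNA passed. SCARNA9, a longer scaRNA of 353 nt in an intron of CEP295, averaged 35.1 ± 7.49 TPM at 1.25 µM and 30.3 ± 11.8 TPM in untreated cells at 24 h, and 51.9 ± 20.1 TPM at 0.63 µM and 40.8 ± 15.8 TPM in untreated cells at 48 h (SD, n = 3 each). Its log2 fold change was 0.26 (SE 0.349, limma adjusted p = 0.696) at 1.25 µM and 0.34 (SE 0.349, limma adjusted p = 0.652) at 48 h. SCARNA18B, SCARNA18, SCARNA7, SCARNA5 and SCARNA13 reached 1 TPM in 11, 4, 7, 7 and 5 libraries and passed in no comparison.

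**Figure D3:**
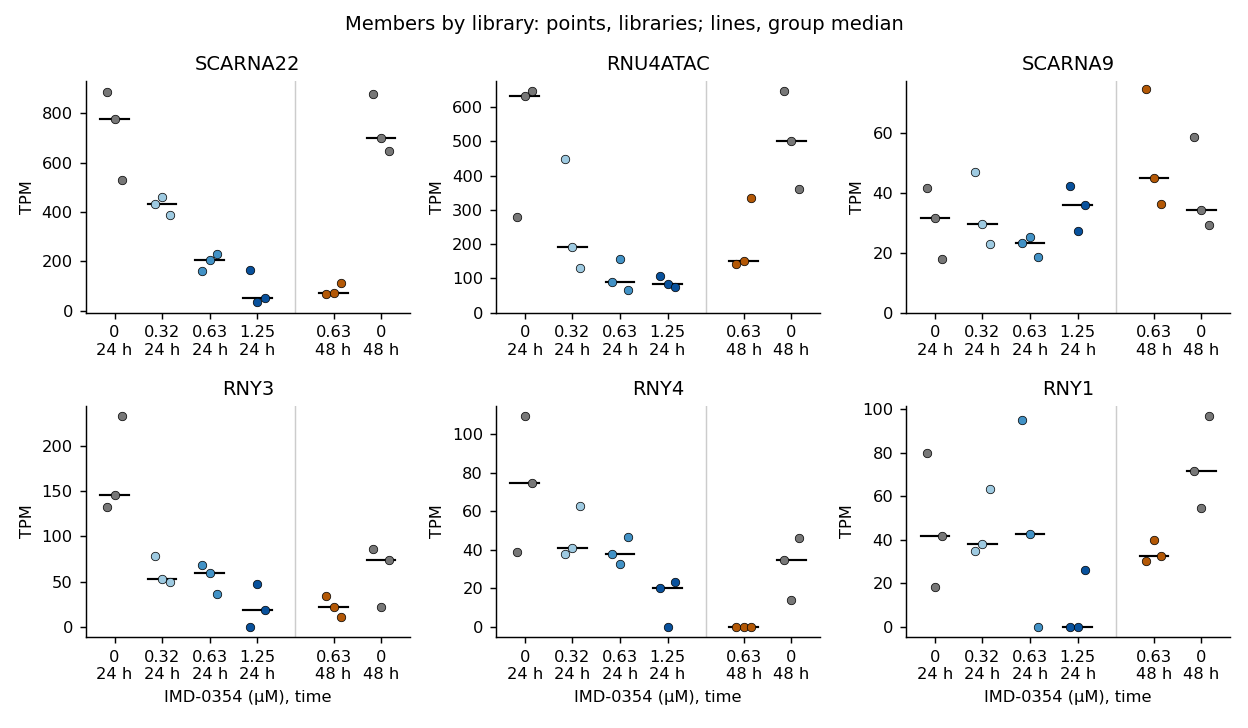
TPM (y axis) of 6 members in each library, by IMD-0354 dose in µM and time (x axis). Points are libraries and lines the group medians. SCARNA22 lies between 34.2 and 164 TPM at 1.25 µM and between 530.0 and 889 TPM in untreated cells at 24 h, while SCARNA9 overlaps between the groups.

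RNU4ATAC, the U4atac RNA that pairs with U6atac in the minor spliceosome, was the next most abundant member by TPM. It lies at chr2:121530881-121531007 on the plus strand, within an intron of CLASP1-AS1 and opposite the CLASP1 gene. Untreated cells at 24 h held 278, 631 and 648 TPM, cells at 0.32 µM 448, 190.4 and 129 TPM, cells at 0.63 µM 89.3, 156 and 67.0 TPM, and cells at 1.25 µM 108, 82.3 and 76.3 TPM. The 0.32 µM group overlapped the untreated one and the higher doses did not.

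The log2 fold change was −2.45 (SE 0.456, limma adjusted p = 0.0027) at 1.25 µM and −2.30 (SE 0.456, limma adjusted p = 0.0186) at 0.63 µM for 24 h. The second call was lost without library 1 or 3 at 0.63 µM or untreated library 2 (adjusted p of 0.0571, 0.109 and 0.067). In a fit of the compared groups alone both calls were lost (limma adjusted p of 0.051 at 1.25 µM and 0.189 at 0.63 µM), as they were without both untreated libraries 2 and 3 (0.171 and 0.412). At 48 h RNU4ATAC stood at 142, 152 and 334 TPM at 0.63 µM, against 647, 502 and 360.4 TPM in untreated cells. The groups did not overlap, but the log2 fold change of −1.34 (SE 0.456, limma adjusted p = 0.0889) did not pass. RNU6ATAC, its partner, was above 0 in 4 libraries, all of them treated, at 4.52 to 9.72 TPM.

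Of the 3 Y RNAs among the members, RNY3 and RNY4 fell at 1.25 µM and RNY4 fell at 48 h. RNY5 matched no symbol and could not be read. RNY3 held 132, 146 and 233 TPM in untreated cells at 24 h, 78.5, 53.3 and 49.1 TPM at 0.32 µM, 68.8, 59.4 and 36.5 TPM at 0.63 µM, and 0, 47.0 and 18.2 TPM at 1.25 µM. All 9 treated libraries lay below the 3 untreated ones. RNY3 fell at 1.25 µM, with a log2 fold change of −4.09 (SE 0.949, limma adjusted p = 0.0108) that rests in part on the library at 0. Without that library it was −2.45, and the call was kept. The call was lost in a fit of the compared groups alone (limma adjusted p = 0.194) and without both untreated libraries 2 and 3 (limma adjusted p = 0.175).

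RNY4, chr7:148963315-148963410 on the plus strand, held 39.0, 109 and 74.5 TPM in untreated cells at 24 h, 37.6, 40.8 and 62.6 TPM at 0.32 µM, 37.8, 32.6 and 46.6 TPM at 0.63 µM, and 20.3, 0 and 23.2 TPM at 1.25 µM. Only the 1.25 µM group lay wholly below the untreated one. The log2 fold change there was −3.11 (SE 0.839, limma adjusted p = 0.0247). It was lost without untreated library 2 or 3 (adjusted p of 0.0819 and 0.0541), and without library 2 at 1.25 µM the log2 fold change was −1.61. It was also lost in a fit of the compared groups alone (limma adjusted p = 0.265), with an added 0.1 TPM in place of 1 (0.0577) and with no filter (0.0536). At 48 h RNY4 was listed at 0 in all 3 libraries at 0.63 µM, against 34.9, 13.9 and 46.1 TPM in untreated cells, and fell (limma adjusted p = 0.0019). No fold change is given against a group at 0. This call was kept with each single library left out.

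RNY1, chr7:148987136-148987248 on the minus strand, was at 0, 0 and 26.0 TPM at 1.25 µM, against 80.1, 18.4 and 41.7 TPM in untreated cells at 24 h, and did not pass (limma adjusted p = 0.082). At 48 h it stood at 30.2, 39.7 and 32.5 TPM at 0.63 µM, against 71.8, 54.4 and 96.9 TPM in untreated cells. These groups did not overlap, and the log2 fold change of −1.07 (SE 1.34, limma adjusted p = 0.722) did not pass. Untreated RNY3 was lower at 48 h than at 24 h in every library, at 85.9, 21.8 and 74.5 TPM, with a log2 difference of −1.65 (SE 0.949, limma adjusted p = 0.699) that did not pass. The RNY pseudogenes RNY3P15, RNY1P9 and RNY3P8 passed in no comparison. They summed to 42.9, 18.3 and 0 TPM at 1.25 µM, against 16.7, 0 and 0 TPM in untreated cells at 24 h.

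Transcripts of proteins that bind Y RNAs and other polymerase III transcripts were measured too. SSB encodes La, which binds the terminal U run of such transcripts. It fell at 1.25 µM, with 66.5 ± 8.61 TPM against 164 ± 22.1 TPM in untreated cells at 24 h (SD, n = 3 each) and a log2 fold change of −1.29 (SE 0.149, limma adjusted p = 5.1e-05). NCL, the nucleolin gene, fell by 1.36 and MATR3 by 1.11 on the log2 scale there (limma adjusted p of 0.0015 and 0.0064). Of 8 measured genes on this list 3 fell and 0 rose at 1.25 µM, and 0 passed at 48 h. Over all genes, 6.36% were called lower and 4.94% higher at 1.25 µM, and 5.68% lower and 1.95% higher at 48 h. RO60, the gene of the Ro60 protein, stood at 45.5 ± 4.59 TPM at 1.25 µM and 53.9 ± 9.04 TPM in untreated cells at 24 h (SD, n = 3 each) and did not pass. Among 15 genes of RNA polymerase III and its factors, 0 fell at either, and CRCP rose by 1.14 on the log2 scale at 1.25 µM (SE 0.201, limma adjusted p = 0.0018).

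SNORA61, SNORA67, SNORA12 and SNORA62 were the SNORA genes that passed in a comparison, all with low levels and several libraries at 0. SNORA61, chr1:28579764-28579893 on the minus strand, guides pseudouridylation of ribosomal RNA and lies within its host SNHG12. It overlaps an exon of a gene that contains it on its strand, which need not be the host named. Reads of the snoRNA and of that gene cannot be told apart there. The same holds for each member described below as overlapping an exon. SNORA61 held 17.1, 28.3 and 16.9 TPM in untreated cells at 24 h, 23.4, 12.7 and 1.80 TPM at 0.32 µM, 0, 0.410 and 0 TPM at 0.63 µM, and 19.1, 9.33 and 0 TPM at 1.25 µM. The level was thus lowest at the middle dose, and the 1.25 µM group overlapped the untreated one.

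SNORA61 fell at 0.63 µM for 24 h with a log2 fold change of −4.24 (SE 0.916, limma adjusted p = 0.0285). At 48 h it stood at 0, 3.70 and 0 TPM at 0.63 µM, against 14.7, 18.5 and 11.5 TPM in untreated cells, and fell with a log2 fold change of −3.22 (SE 0.916, limma adjusted p = 0.0418). Each of these calls was lost in 5 of the 6 fits without 1 library (adjusted p of 0.0525 to 0.115 at 24 h and 0.0779 to 0.165 at 48 h). With no filter both were lost (limma adjusted p of 0.0588 and 0.0856). A fit of the compared groups alone lost the 24 h call (0.0783), and an added 0.1 TPM lost the 48 h call (0.0574). SNHG12 itself rose at 1.25 µM, with 261 ± 72.1 TPM against 132 ± 69.5 TPM in untreated cells at 24 h (SD, n = 3 each, log2 fold change 1.09, limma adjusted p = 0.0462). The other SNHG12 members, SNORA44 and SNORA16A, were listed at 0 in all 3 libraries at 1.25 µM and did not pass (limma adjusted p of 0.197 and 0.156).

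SNORA67, chr17:7577955-7578091 on the plus strand, lies within EIF4A1 and overlaps an exon on its strand. It was listed at 0 in all libraries at 1.25 µM, against 38.1, 6.54 and 37.9 TPM in untreated cells at 24 h, and fell (limma adjusted p = 0.0313). At 48 h it stood at 13.5, 0 and 0 TPM at 0.63 µM, against 47.8, 30.7 and 24.7 TPM in untreated cells, and did not pass (limma adjusted p = 0.0836). EIF4A1, which encodes a translation initiation helicase, fell at 1.25 µM with 341 ± 80.2 TPM against 533 ± 18.1 TPM in untreated cells (SD, n = 3 each) and a log2 fold change of −0.67 (SE 0.153, limma adjusted p = 0.0099). It was the single case in which a member and its host both passed as lower.

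SNORA12, chr10:100237156-100237302 on the minus strand, lies in an intron of CWF19L1. It was listed at 0 in all libraries at 1.25 µM, against 7.75, 9.81 and 11.1 TPM in untreated cells at 24 h, and fell (limma adjusted p = 0.037). SNORA62 at chr3:39411054-39411206 on the plus strand lies within RPSA and overlaps an exon on its strand. It was listed at 0 in all libraries at 0.63 µM for 48 h, against 8.17, 13.0 and 12.7 TPM in untreated cells, and fell (limma adjusted p = 0.0497). RPSA, a ribosomal protein gene, stood at 1042 ± 29.4 TPM and 943 ± 41.7 TPM in these groups (SD, n = 3 each). Both snoRNA calls were lost with any 1 library of their comparison left out (adjusted p of 0.0682 to 0.0946 for SNORA12 and 0.102 to 0.142 for SNORA62), and the SNORA67 call in 5 of 6 such fits (adjusted p of 0.0718 to 0.0925). The SNORA12, SNORA67 and SNORA62 calls were also lost with an added 5 TPM (limma adjusted p of 0.0569, 0.0567 and 0.108). With no filter they were lost as well (0.0795, 0.0683 and 0.102). Median-of-ratios scaling (0.0526) and a replicate block (0.0599) lost SNORA62, and a fit of the compared groups alone lost SNORA67 (0.0525).

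The SNORA genes with the highest mean TPM did not pass. SNORA24, in SNHG8 and overlapping an exon, held 1.65, 22.9 and 0 TPM at 1.25 µM and 45.3, 98.8 and 0 TPM in untreated cells at 24 h. At 48 h it held 48.1, 44.0 and 81.6 TPM at 0.63 µM and 21.9, 51.6 and 16.2 TPM in untreated cells. SNORA26, in DANCR, held 0, 36.4 and 10.5 TPM at 1.25 µM and 47.2, 64.8 and 33.8 TPM in untreated cells at 24 h. SNORA33, in RPS12, held 7.88, 15.6 and 0 TPM at 1.25 µM and 55.6, 51.2 and 33.8 TPM in untreated cells at 24 h, groups that did not overlap (limma adjusted p = 0.106). SNORA31B, in TPT1 and overlapping an exon, held 0, 2.46 and 0 TPM at 1.25 µM and 27.4, 45.0 and 5.04 TPM in untreated cells at 24 h (limma adjusted p = 0.0513). SNORA73B, in an intron of RCC1, was above 0 in 4 libraries, at 1.58 to 3.38 TPM.

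Members that passed came from every kind of position. Of the 111, 53 lay within a host intron, 29 overlapped an exon of a gene containing them and 29 had no host gene on their strand. At 1.25 µM the number that fell was 4, 1 and 2 in these sets, and the median log2 fold change was −1.01, −1.89 and −1.33. The last of these medians falls on a value that identical U6 copies share. For 75 members a host was among the genes tested, giving 68 hosts. At 1.25 µM 4 of these hosts rose and 10 fell, where 4.94% of all genes were called higher and 6.36% lower, and their median log2 fold change was −0.07 while that of the members was −1.02. At 48 h 2 hosts rose and 5 fell, where 1.95% of all genes were called higher and 5.68% lower, with a median of −0.20 for hosts and −0.37 for members.

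**Figure D4:**
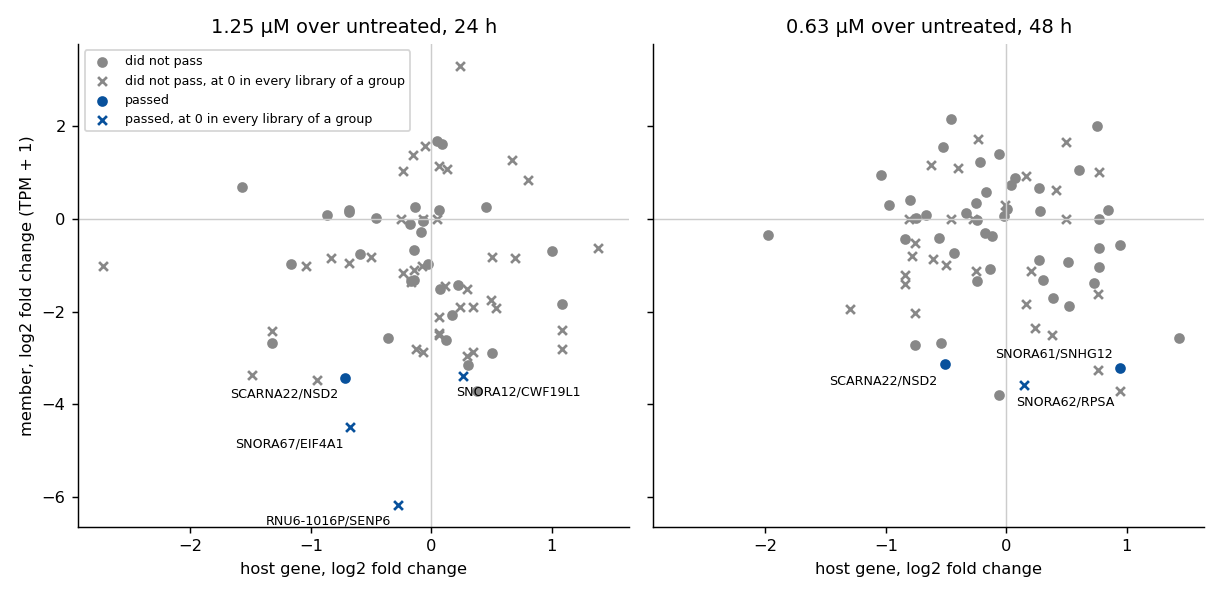
Log2 fold change of the member (y axis) against that of its host gene (x axis) for 75 members with a tested host, at 1.25 µM for 24 h and at 0.63 µM for 48 h, each over untreated cells. Blue marks members that passed, and crosses those at 0 in every library of a group, whose height depends on the added 1 TPM. The passing members lie low while their hosts lie between −0.71 and 0.94.

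RNU6-1016P, a U6 pseudogene of 94 nt in an intron of SENP6 (chr6:75644084-75644177, plus strand), gave the lowest adjusted p of the members at 0.63 µM for 24 h. It held 71.6, 36.2 and 137 TPM in untreated cells at 24 h and 152, 30.0 and 41.4 TPM at 0.32 µM, and was listed at 0 in all libraries at 0.63 and 1.25 µM. It fell at both doses (limma adjusted p of 0.0054 and 0.00091), and the call at 0.63 µM was lost in a fit of the compared groups alone (0.0783) and without both untreated libraries 2 and 3 (0.12). It was also listed at 0 in all 3 untreated libraries at 48 h, and at 35.6, 0 and 0 TPM at 0.63 µM for 48 h. The untreated groups at 48 h and 24 h did not overlap (limma adjusted p = 0.0542), so groups listed wholly at 0 occurred both with and without the compound. SENP6, a SUMO protease gene, stood at 26.0 ± 2.03 TPM at 1.25 µM and 32.6 ± 10.9 TPM in untreated cells at 24 h (SD, n = 3 each) and did not pass.

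Identical or near-identical copies share reads, so U6 and U1 were read as sums, an approach chosen after seeing the data. Sums of the U6, U1, U2 and U3 copies were tested in a separate limma fit over 14917 genes and sums. There they replaced the single copies. RNU6-1 and 6 further genes, RNU6-2, RNU6-9, RNU6-3P, RNU6-4P, RNU6-5P and RNU6-6P, had the same TPM in all 18 libraries. RNU6-7 and RNU6-8 equalled RNU6-1 in 16 libraries, and RNU6-11P and RNU6-37P in 17. In untreated 48 h library 3, RNU6-7 and RNU6-8 stood at 98.1 TPM each and the other 9 copies at 0. The U6 value of a single gene therefore depends on how reads were divided.

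The 11 U6 copies summed to 217, 214 and 212 TPM in untreated cells at 24 h, 149, 171 and 216 TPM at 0.32 µM, 182, 66.7 and 120 TPM at 0.63 µM, and 90.2, 36.5 and 138 TPM at 1.25 µM. At 48 h they summed to 80.3, 84.6 and 28.8 TPM at 0.63 µM, against 212, 108 and 196 TPM in untreated cells. Neither the 1.25 µM group nor the 48 h one overlapped its untreated group. The log2 fold change was −1.46 (SE 0.469, limma adjusted p = 0.0549) at 1.25 µM and −1.49 (SE 0.469, limma adjusted p = 0.0654) at 48 h, so neither passed.

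The 6 identical U1 genes and pseudogenes summed to 3.24, 0 and 3.72 TPM at 1.25 µM, against 27.8, 10.6 and 9.42 TPM in untreated cells at 24 h (limma adjusted p = 0.0763). At 48 h they summed to 11.7, 2.28 and 7.26 TPM at 0.63 µM, against 12.2, 26.8 and 38.3 TPM in untreated cells (limma adjusted p = 0.245). RNU2-1 and RNU2-2P, the copies of U2, summed to 2.73, 0 and 47.3 TPM at 1.25 µM and 18.8, 57.0 and 7.56 TPM in untreated cells at 24 h, and overlapped. RNU5B-1 and RNU4-1 reached 1 TPM in 7 and 3 libraries, and each had a library above 0 in both treated and untreated cells. RNU6-36P, RNU6-26P and RNU6-1016P, each with a sequence of its own, had the highest means among pseudogenes but were at 0 in 10, 6 and 11 libraries.

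**Figure D5:**
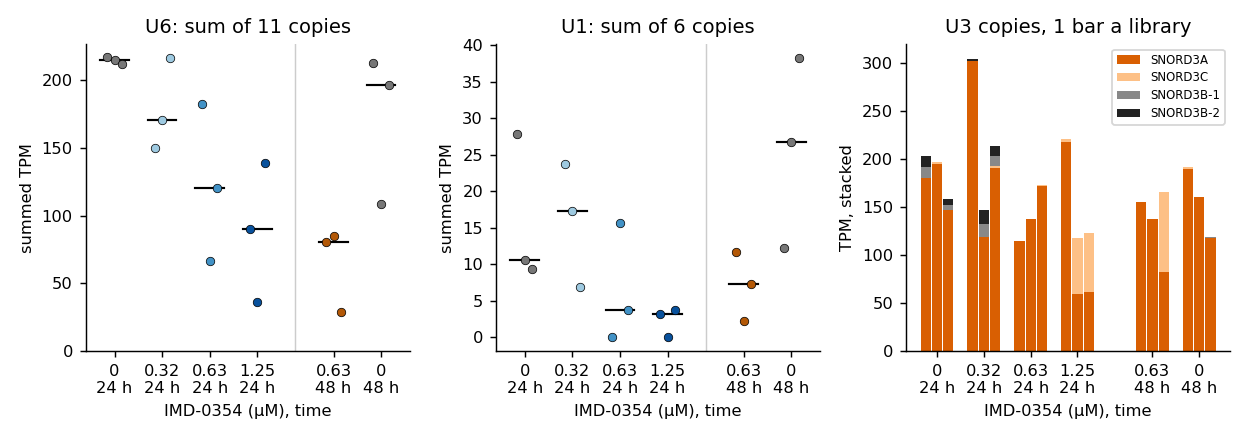
Summed TPM (y axis) of the 11 U6 copies and the 6 U1 copies in each library, with lines at group medians, and TPM of the 4 U3 copies stacked in 1 bar for each library, by dose in µM and time (x axis). U6 lies between 36.5 and 138 TPM at 1.25 µM and between 212 and 217 TPM in untreated cells at 24 h, while in 3 treated libraries SNORD3A and SNORD3C have bars of equal height.

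Among SNORD genes 0 fell and 1 rose, namely SNORD3C. SNORD3A and SNORD3C are annotated as copies of U3, the C/D RNA needed for the first cuts of the ribosomal RNA precursor. The annotated transcript of SNORD3A is 699 nt long, where the median of SNORD genes is 81 nt, and TPM divides by that length. Whether its reads came from mature U3 was not tested. SNORD3C rose at 1.25 µM, at 3.54, 59.2 and 61.6 TPM against 0, 1.29 and 0 TPM in untreated cells at 24 h, with a log2 fold change of 4.29 (SE 1.32, limma adjusted p = 0.0463). In those 2 high libraries SNORD3A had exactly the same TPM, 59.2 and 61.6, and both stood at 82.7 TPM in library 3 at 0.63 µM for 48 h. How reads were divided between the copies was not tested. SNORD3A alone held 218 TPM in the remaining 1.25 µM library and 147 to 195 TPM in untreated cells at 24 h, and did not pass (limma adjusted p = 0.196). The 4 U3 genes together held 221, 118 and 123 TPM at 1.25 µM, against 203, 197 and 158 TPM in untreated cells, and did not pass (log2 fold change −0.32, SE 0.273, limma adjusted p = 0.51). The SNORD3C call was lost in 5 of the 6 fits without 1 library (adjusted p of 0.0668 to 0.162). It was also lost with an added 0.1 or 5 TPM in place of 1 (limma adjusted p of 0.0715 and 0.059) and with no filter (0.0955). Median-of-ratios scaling (0.0539) and a fit of the compared groups alone (0.122) lost it too.

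SNORD13, the U13 RNA that guides acetylation of ribosomal RNA, was above 1 TPM in every library. It averaged 95.6 ± 32.3 TPM at 1.25 µM and 72.7 ± 40.8 TPM in untreated cells at 24 h, and 76.1 ± 69.0 TPM at 0.63 µM and 138 ± 58.8 TPM in untreated cells at 48 h (SD, n = 3 each). SNORD11B, in an intron of NOP58, held 28.0, 83.2 and 64.3 TPM at 1.25 µM and 108, 45.4 and 155 TPM in untreated cells at 24 h. SNORD16, in RPL4 and overlapping an exon, was at 0 in all libraries at 0.63 and 1.25 µM for 24 h, against 11.0, 38.5 and 0 TPM in untreated cells. None of the 3 passed.

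Genes of the proteins that carry these RNAs were read against the share of all genes called. At 1.25 µM 6.36% of all genes were called lower and 4.94% higher, and at 48 h 5.68% lower and 1.95% higher. Of the genes called, 950 of 1688 were lower at 1.25 µM and 849 of 1140 at 48 h. The 16 Sm and LSm genes encode rings that sit on spliceosomal RNAs, at the site marked in RNU4ATAC and at the end of U6, except LSM10 and LSM11, which belong to the U7 particle of histone mRNA processing. At 0.63 µM for 48 h 9 of them fell and 0 rose, with a median log2 fold change of −0.70 beside −0.15 over all genes. SNRPD1 stood at 365 ± 33.2 TPM at 0.63 µM and 758 ± 23.4 TPM in untreated cells, SNRPG at 446 ± 77.7 and 1009 ± 39.9 TPM, and LSM6 at 8.10 ± 0.724 and 23.4 ± 4.12 TPM in the same groups (SD, n = 3 each, limma adjusted p of 0.0003, 0.0007 and 0.0007). At 1.25 µM for 24 h 2 of the 16 fell, SNRPD3 by 0.83 and SNRPD1 by 0.59 on the log2 scale.

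Of 13 Cajal body genes 2 fell at 1.25 µM, GEMIN4 by 1.02 and GEMIN5 by 0.71 on the log2 scale, and 2 at 48 h, GEMIN6 by 0.95 and GEMIN5 by 0.87, all members of the SMN complex that loads Sm rings. Of 9 minor spliceosome genes 2 fell at 1.25 µM, SNRNP35 by 1.65 and SNRNP48 by 1.26 on the log2 scale, and SNRNP25 fell by 1.70 at 48 h. Of 16 proteins specific to the major snRNPs, SF3A1 and PRPF4 fell at 1.25 µM and SNRNP70 fell by 0.96 on the log2 scale at 48 h.

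Among the 4 H/ACA core genes 0 passed in limma at 1.25 µM or at 48 h. DKC1, the pseudouridine synthase gene, stood at 496 ± 38.9 TPM at 1.25 µM and 768 ± 337 TPM in untreated cells at 24 h (SD, n = 3 each), and NHP2 at 155 ± 24.9 TPM at 0.63 µM and 215 ± 12.2 TPM in untreated cells at 48 h (SD, n = 3 each). Of the 4 C/D core genes NOP56 fell at 1.25 µM, with 328 ± 15.1 TPM against 649 ± 167 TPM in untreated cells at 24 h (SD, n = 3 each, limma adjusted p = 0.0237). Of 12 assembly and maturation factors 4 fell at 1.25 µM, RPAP3 by 1.21, PHAX by 1.09, RUVBL1 by 0.91 and TGS1 by 0.76 on the log2 scale, and SHQ1 fell by 1.01 at 48 h. SNAPC1, a subunit of the factor that starts transcription of snRNA genes, rose at both, by 1.08 at 1.25 µM (limma adjusted p = 0.026) and by 1.26 at 48 h (limma adjusted p = 0.0149). Among 24 genes of snRNA transcription and 3′ processing, INTS1 also rose at 1.25 µM (by 1.60 on the log2 scale), while ICE1 fell by 1.42 and POU2F1 by 0.72. At 48 h INTS5 fell by 1.01 on the log2 scale. INTS1 and INTS5 encode subunits of Integrator, while ICE1 and POU2F1 belong to neither Integrator nor SNAPc, the complex of SNAPC1. Of 18 trimming and decay genes EXOSC5 rose and XRN2 and TENT4B fell at 1.25 µM, and 0 passed at 48 h. Of 6 other structured noncoding RNAs 0 passed in limma in either comparison. Among them RN7SL2, the RNA of the signal recognition particle, stood at 29.4 ± 26.3 TPM at 1.25 µM and 63.2 ± 34.8 TPM in untreated cells at 24 h (SD, n = 3 each, log2 fold change −1.36, limma adjusted p = 0.153).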

How the data were processed

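Gene expression was measured by 3′ QuantSeq in 18 libraries of A375 cells, and the authors deposited 1 table of TPM. The submitters' processing notes name cutadapt 1.18, STAR 2.7, RSEM 1.3.1 and DESeq2 and give none of them a step. The genome build was not given in the sources used here. TPM divides by transcript length and keeps no counts, so no count test was made. The 14936 genes that reached 1 TPM in 3 or more libraries were fitted as log2(TPM + 1) with limma 3.58.1 in R 4.3.3, with a mean per group over all 18 libraries (12 residual degrees of freedom) and a mean-variance trend. The fit was tested on simulated normal values, with changes planted only in genes above a set mean level. Such values say little about members with many libraries at 0, and 106 of the 111 members were at 0 in some library. Fold changes on this scale understate those of low genes. Symbols came from a table that matched 56558 of 60504 identifiers. Lengths, hosts (same strand) and sequences came from GENCODE 29 (GRCh38), matched by identifier. SNORA62 names 2 identifiers, and the one in RPSA is meant. Named were every member that passed, the 4 with the highest mean of each class, listed landmarks, hosts, and from each related list up to 3 genes that passed with the largest changes. The members and lists were chosen with earlier results of these data known. Alternatives were pseudocounts of 0.1 and 5 TPM, no filter, a filter at 5 TPM, median-of-ratios scaling, a total without small RNAs, a fit of the compared groups alone, a replicate block and leaving out each library. Sequences of some members are not reported here.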

Additional observations from a re-analysis of the deposited data

How the results depend on the processing

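The number of members that passed was 4 at 0.63 µM for 24 h, 8 at 1.25 µM and 4 at 48 h. A fit of the compared groups alone gave 0, 2 and 6, and no filter gave 2, 7 and 2. The cause was not tested. Leaving out both untreated 24 h libraries 2 and 3, chosen after seeing the data, gave 1 at 0.63 µM and 3 at 1.25 µM, with fewer samples in the fit. With 1 library left out, counts ran from 1 to 5 at 0.63 µM for 24 h (1 without 0.63 µM library 1 or 3), from 5 to 10 at 1.25 µM (5 without 1.25 µM library 2), from 2 to 4 at 48 h (2 without untreated library 1) and from 0 to 1 for the difference of the 48 h and 24 h effects (1 without 0.63 µM 48 h library 1). All other alternatives left each count within 1.5 times. No named call changed its direction under any alternative. Replicate numbers showed no large shared effect. After removal of group means, same-numbered libraries of different groups correlated at −0.093 to 0.115 (median 0.026), and 1 of 45 pairs was over 0.1. The median of other-numbered pairs was −0.017. Whether same-numbered libraries were handled together cannot be told from these values. With a replicate block, counts were 5, 9 and 4, and 1 for untreated cells at 48 h against 24 h. Median-of-ratios scaling moved the median of all genes by 0.147 (log2) at 48 h. No depth is known, and a value of 0 does not show that an RNA was absent.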
